A study of Oryza sativa with 36 samples.

Results

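The step from AM4 to AM5 in rice (Oryza sativa) was followed in 12 of the 35 libraries of a UMI count matrix, the 6 whose label holds AM5 and the 6 whose label holds AM4. Each tissue had 3 libraries of the cultivar NIL-MP3 and 3 of the cultivar Takanari, a high-yielding indica rice. NIL in the other name is the usual short form for a near-isogenic line, and the labels do not give its parents or the segment it carries. All plants grew in climate chambers under short days, and the labels give neither the age of the plants nor the meaning of the AM numbers. Nothing in them ties a library to a plant, so every p-value rests on a spread between libraries that may be technical. RNA was amplified from very small amounts by CEL-Seq2, a method that reads transcripts near the 3' end and gives every molecule its own identifier (UMI), so that copies made by amplification are counted once.

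An axillary meristem is a group of dividing cells in the angle between a leaf and the stem. In rice it first forms a bud with a few young leaves, and the bud then either rests or grows out into a side shoot called a tiller. The choice between rest and growth is known to depend on hormones and sugar supply, and sets how many tillers and panicles a plant carries. SAM usually stands for the shoot apical meristem, which makes the main shoot, though the labels leave the term unexplained. The files identify genes by locus identifiers alone, and 0 of the 55801 identifiers matched the gene table used here. The role of a locus, lists of known genes and the tissue label itself could therefore not be checked against gene names.

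Library numbers run in sets of 6 within each cultivar (1 to 6, 7 to 12 and 13 to 18), and each set holds 1 AM4 and 1 AM5 library. The AM5 libraries were shallower in 4 of the 6 sets. Their totals ran from 77362 to 154774 counts, against 120057 to 179993 in AM4. The mean total was 110700 ± 29300 in AM5 and 156500 ± 22100 in AM4 (SD, n = 6), a mean difference within sets of -45800 counts (exact paired permutation test over sets, two-sided, p = 0.125, adjusted p = 0.125 over 3 library measures). Both AM5 libraries numbered 1 stood lowest, at 79922 counts in NIL-MP3 and 77362 in Takanari. In counts thinned to the lowest total, 12560 ± 159 loci were detected in AM5 and 12440 ± 115 in AM4, and before thinning 13740 ± 1070 and 14900 ± 517 (SD, n = 6). The thinned number was higher in AM5 in 5 of 6 sets (exact p = 0.0625, adjusted p = 0.125). The 100 most abundant loci held 22.1% ± 1.83 of the counts in AM5 and 19.5% ± 1.2 in AM4 (SD, n = 6). This share was also higher in AM5 in 5 of 6 sets (exact p = 0.0938, adjusted p = 0.125), and was highest in the 2 AM5 libraries of lowest total, at 25.1% and 23.5%. None of the 3 measures passed the threshold, and the smallest p that 6 sets allow is 0.0312.

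**Figure D1:**
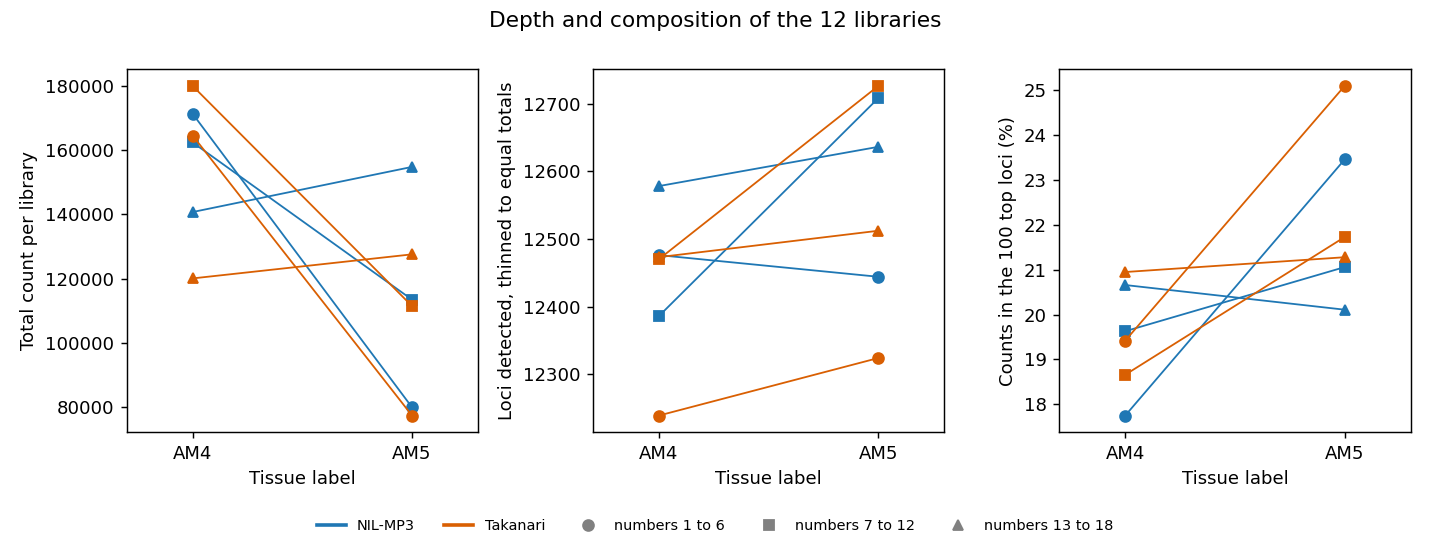
Total count, loci detected after thinning to equal totals, and percent of counts in the 100 most abundant loci (vertical axes, not starting at 0) for AM4 and AM5; a line joins the 2 libraries of a set, with colour for cultivar and marker for the set. Totals fell from AM4 to AM5 in 4 of 6 sets, while the other 2 measures were higher in AM5 in 5 of 6 sets.

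Between AM4 and AM5, 102 loci changed, of which 73 rose and 29 fell. This was 1.47% of the 6943 loci tested, 1.05% rising and 0.418% falling, in edgeR's quasi-likelihood test at a Benjamini-Hochberg adjusted p under 0.05 with the set of library numbers as block. The rising loci changed by a median of 2.38-fold (1.3-fold to 14.4-fold), and 14 of them by more than 4-fold. The falling loci changed by a median of 1.84-fold (1.33-fold to 4.86-fold), 1 of them by more than 4-fold. The median log2 change of all tested loci was -0.00192. In bulk tissue, a change in the share of cells of a type and a change in RNA per cell cannot be told apart.

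The number of called loci depended on the block and on library numbers 1 to 6. Without the block 25 loci passed, 18 rising, and 24 of them were among the 102. Without both AM5 libraries numbered 1, 45 loci passed, 23 rising and 22 falling. Without library numbers 1 to 6, which hold these 2 libraries and both AM4 libraries numbered 2, 17 passed, 11 of them rising. Of the 4 libraries in these sets, leaving out NIL-MP3 AM4 replicate 2 (171320 counts) gave 41 loci and Takanari AM4 replicate 2 (164536 counts) 47. Leaving out Takanari AM5 replicate 1 (77362 counts) gave 58 and NIL-MP3 AM5 replicate 1 (79922 counts) 76. The 8 other libraries gave 69 to 142 when left out one at a time, with 142 loci without NIL-MP3 AM5 replicate 7. In counts thinned to the lowest total, 34 loci passed, 27 of them rising, and 27 of the 34 were among the 102. Rising loci made up 71.6% of the calls with TMM scaling and 56% with upper quartile scaling (61 of 109), which moved the median change of all tested loci to -0.0564.

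**Figure D2:**
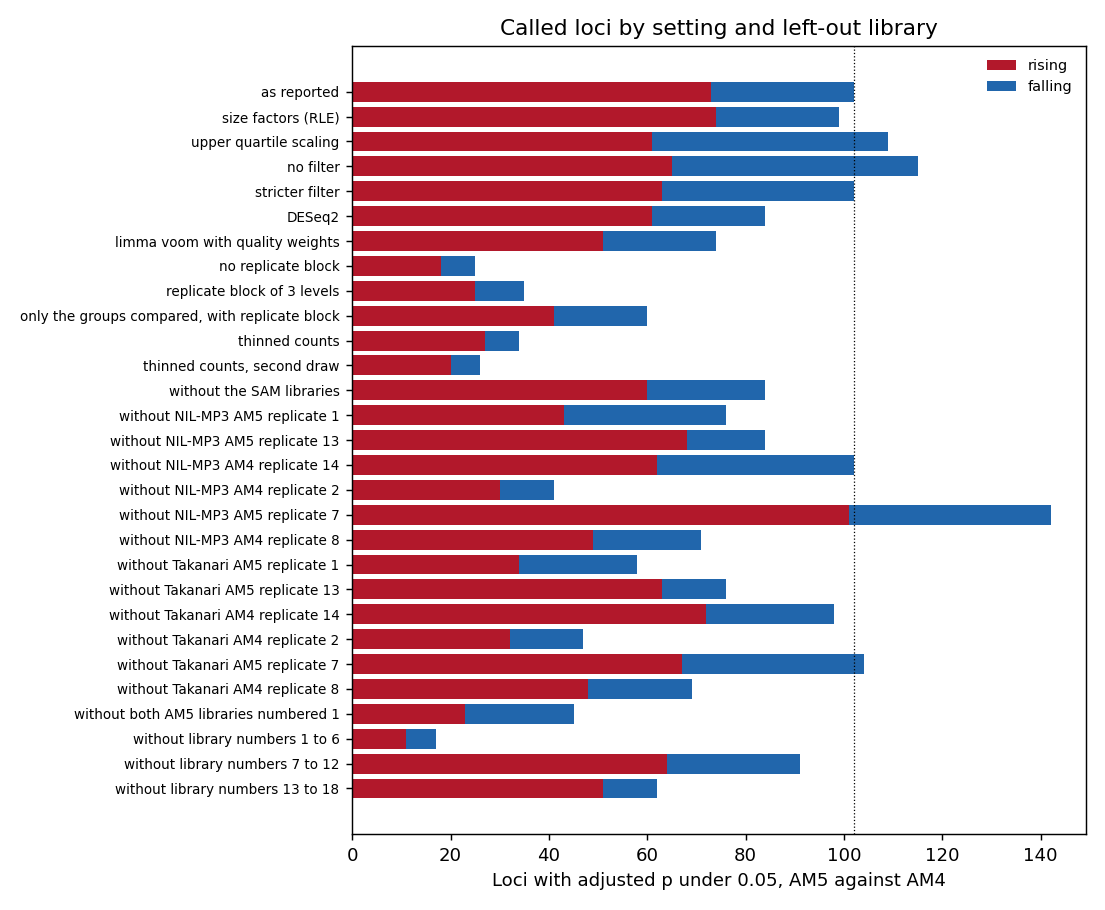
Number of loci with an adjusted p under 0.05 between AM5 and AM4 (horizontal axis), split into rising and falling loci, for the reported fit, each alternative setting and each left-out library or set (vertical axis). The dotted line marks the 102 loci of the reported fit, and the shortest bar, 17 loci, is the one without library numbers 1 to 6.

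LOC_Os03g45280, on chromosome 3 by its identifier, rose with the lowest p-value of all tested loci. In NIL-MP3 it had 370, 266 and 412 CPM (counts scaled to one common library total with TMM factors) in AM4 replicates 2, 8 and 14, and 706, 1850 and 1160 CPM in AM5 replicates 1, 7 and 13. In Takanari the same replicates had 274, 152 and 523 CPM in AM4 and 708, 543 and 2730 CPM in AM5. The 6 AM5 libraries all lay above the 6 AM4 libraries, with Takanari AM5 replicate 13 far above the other AM5 libraries of that cultivar. The fitted change was 3.57-fold, a log2 difference of 1.84 ± 0.22 (SE, adjusted p = 4.94e-06, edgeR), and the locus was higher in AM5 in 6 of 6 sets. The log2 change was 1.76 ± 0.30 in NIL-MP3 and 1.92 ± 0.31 in Takanari (SE), and their difference did not pass the threshold (-0.161 ± 0.43, adjusted p = 1). Its level was 90.9 ± 54.5 CPM in AM1, 139 ± 79.4 in AM2 and 149 ± 97.2 in AM3 (SD, n = 6), and 91 ± 56.9 in SAM (n = 5). AM4 had 333 ± 130 CPM and AM5 1280 ± 853 CPM, and the 6 AM5 libraries all lay above every library of AM1, AM2, AM3 and SAM.

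LOC_Os02g43700, on chromosome 2, was higher in AM5 than in AM4, with its lowest mean in AM3. In NIL-MP3 it had 231, 288 and 185 CPM in AM4 replicates 2, 8 and 14, and 1080, 406 and 327 CPM in AM5 replicates 1, 7 and 13. In Takanari it had 267, 210 and 385 CPM in AM4 and 657, 521 and 520 CPM in AM5. The ranges of AM4 (185 to 385 CPM) and AM5 (327 to 1080 CPM) overlapped, and each set was higher in AM5. The fitted change was 2.19-fold, a log2 difference of 1.13 ± 0.18 (SE, adjusted p = 3.91e-05, edgeR). The highest value came from NIL-MP3 AM5 replicate 1, one of the 2 libraries of lowest total, and without library numbers 1 to 6 the log2 difference was 0.7414 and did not pass (adjusted p = 0.163). The locus had 488 ± 92.3 CPM in AM1, 258 ± 73.8 in AM2 and 182 ± 53.7 in AM3 (SD, n = 6), and 327 ± 110 in SAM (n = 5). In a fit without any AM4 or AM5 library it was lower in AM3 than in AM1 by a log2 difference of -1.44 ± 0.18 (SE, adjusted p = 1.53e-10). Its levels in AM1 and AM5 overlapped, at 321 to 565 and 327 to 1080 CPM.

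LOC_Os07g08710, on chromosome 7, had the lowest p-value of the falling loci. In NIL-MP3 it had 1150, 806 and 420 CPM in AM4 replicates 2, 8 and 14, and 486, 406 and 241 CPM in AM5 replicates 1, 7 and 13. In Takanari it had 702, 781 and 810 CPM in AM4 and 539, 610 and 274 CPM in AM5. NIL-MP3 AM4 replicate 14 lay within the AM5 range, and the 5 other AM4 libraries lay above every AM5 library. The fitted change was 1.87-fold, a log2 difference of -0.90 ± 0.15 (SE, adjusted p = 3.91e-05, edgeR), with lower values in AM5 in 6 of 6 sets. The level was 961 ± 101 CPM in AM2 and 947 ± 95 CPM in AM3 (SD, n = 6). SAM had 1080 ± 167 CPM (n = 5), and AM5 had 426 ± 147 CPM (n = 6). The highest AM5 library, at 610 CPM, lay below the lowest library of AM1 (734 CPM), AM2 (874 CPM), AM3 (837 CPM) and SAM (894 CPM).

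LOC_Os02g47150, on chromosome 2, fell in 5 of 6 sets. In NIL-MP3 it had 363, 209 and 75.6 CPM in AM4 replicates 2, 8 and 14, and 141, 96.2 and 77.8 CPM in AM5 replicates 1, 7 and 13. In Takanari it had 288, 280 and 197 CPM in AM4 and 101, 99.8 and 56.7 CPM in AM5. NIL-MP3 library numbers 13 to 18 stood out, because the AM4 library of that set was as low as its AM5 library, with 9 and 10 counts. The fitted change was 2.46-fold, a log2 difference of -1.30 ± 0.24 (SE, adjusted p = 2.69e-04, edgeR). AM1, AM2, AM3 and SAM had 320 ± 88.8, 373 ± 64.3, 284 ± 112 and 323 ± 71.9 CPM (SD), against 95.5 ± 28.2 CPM in AM5. In thinned counts the adjusted p was 0.0597 at a log2 difference of -1.154, and without library numbers 1 to 6 it was 0.0771 at -1.178.

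**Figure D3:**
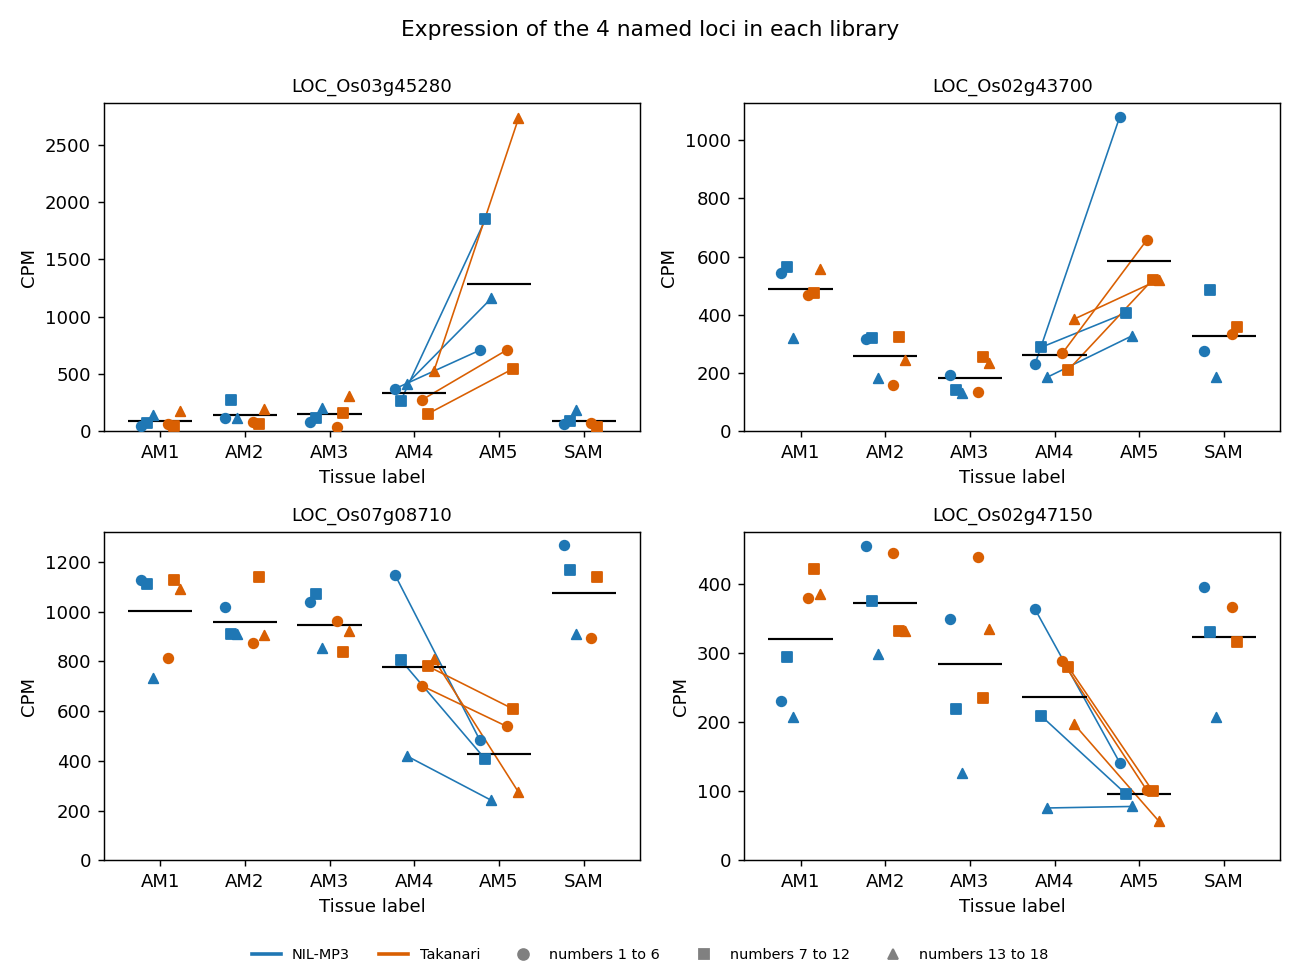
CPM (vertical axes, from 0) of the 4 named loci in each of the 35 libraries by tissue label; colour gives the cultivar, the marker gives the set of library numbers, black bars are means, and lines join the AM4 and AM5 libraries of a set. LOC_Os03g45280 and LOC_Os02g43700 were higher in AM5 in 6 of 6 sets, LOC_Os07g08710 was lower in 6 of 6 and LOC_Os02g47150 in 5 of 6.

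The 12 rising loci of lowest p-value had log2 changes of 0.595 to 3.05, and the 12 falling loci of lowest p-value fell by 0.651 to 1.37 on the log2 scale. Most called loci moved one way in nearly every set, while few separated the AM4 and AM5 libraries completely. Of the 73 rising loci, 40 were higher in AM5 in 6 of 6 sets and 27 in 5 of 6, and of the 29 falling loci, 22 were lower in 6 of 6 and 6 in 5 of 6. Over all tested loci 5.95% differed in one direction in 6 of 6 sets. The 6 AM5 and 6 AM4 values did not overlap at 7 rising and 2 falling loci, where 0.36% of all tested loci did not overlap. These counts describe loci chosen for their difference in the same libraries. The rising loci had a median level of 109 CPM in AM4 and 267 CPM in AM5, and the falling loci 308 and 174 CPM. No called locus was at 0 in all 6 libraries of either tissue (0 loci). Together the rising loci held 6.11% to 8.73% of a library's counts in AM4 (median 7.04%) and 8.93% to 14% in AM5 (median 10.1%). Most of this share lay in 2 loci with adjacent identifiers, LOC_Os09g00999 and LOC_Os09g01000. Their mean levels were 27660 and 28200 CPM in AM4, and 40920 and 41710 CPM in AM5. Their log2 changes were 0.53 and 0.52, so the share says little about the other rising loci. The falling loci held 0.868% to 1.58% in AM4 and 0.516% to 0.865% in AM5.

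The rising loci moved most in library numbers 1 to 6, the sets with the shallowest AM5 libraries. Their median log2 step was 1.59 in NIL-MP3 and 1.48 in Takanari for library numbers 1 to 6. For numbers 7 to 12 it was 0.531 and 0.878, and for numbers 13 to 18 it was 0.898 and 0.67, in the same order. The falling loci showed no such spread, with medians from -0.868 to -0.614 over the 6 sets. Over all tested loci the SD of the log2 step was also largest in numbers 1 to 6. It was 0.9 in NIL-MP3 and 0.91 in Takanari there, against 0.679 to 0.755 in the other sets. The rising loci were chosen in these same libraries, so their medians per set are not free of that choice. The AM5 libraries of numbers 7 to 12 and 13 to 18 had 113440 and 154774 counts in NIL-MP3, and 111449 and 127550 in Takanari. Whether the size of the rise depends on depth was not tested.

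Because the loci were chosen in the same libraries, the step was also read in sets that had no part in the choice. Of the 11 loci called as rising without library numbers 1 to 6, 9 were higher in AM5 in the left-out NIL-MP3 pair and 8 in the left-out Takanari pair, with median log2 steps of 0.904 and 1.49. Without numbers 7 to 12, 64 loci were called as rising, and 1 of them was not among the 6943 tested loci. Of the other 63, 39 and 54 were higher in the left-out pairs of NIL-MP3 and Takanari, with medians of 0.328 and 0.641. Of the 51 called without numbers 13 to 18, 35 and 33 were higher, with medians of 0.5 and 0.166. In the 6 left-out pairs, 61.9% to 85.7% of the loci called as rising were thus higher in AM5, against 47.4% to 50.5% of all tested loci. Loci called as falling were lower in 72.7% to 100% of cases in the 6 left-out pairs, from lists of 6, 27 and 11 loci, with median log2 steps between -0.747 and -0.366. Of all tested loci, 49.3% to 52.6% were lower there. The loci read in a pair share its AM4 and AM5 library, so they are not replicates and each pair is 1 observation. Both cultivars were read with the same list for a given set of numbers, and the scaling factors came from all libraries.

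**Figure D4:**
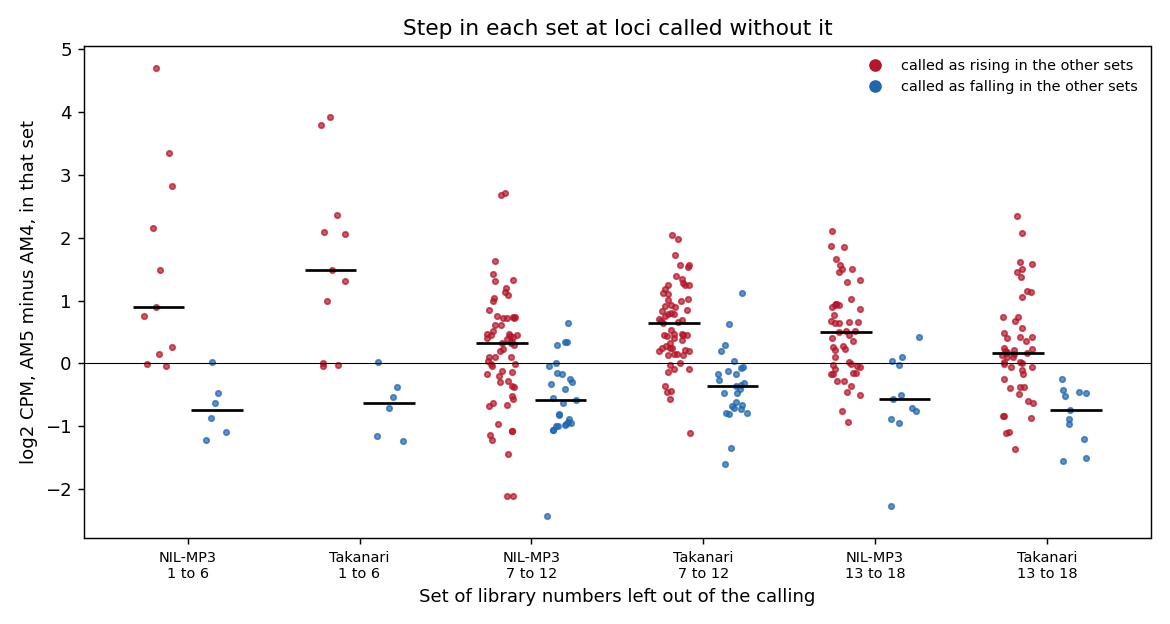
Difference in log2 CPM between the AM5 and AM4 library of each set (vertical axis) at loci called as rising or falling in a fit without the library numbers of that set (horizontal axis: the pair left out, by cultivar and library numbers); each point is a locus and black bars are medians. The 6 medians of rising loci ran from 0.166 to 1.49 and those of falling loci from -0.747 to -0.366.

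The step was also fitted within each cultivar, with 3 AM5 and 3 AM4 libraries. In NIL-MP3, 15 loci changed (0.216% of those tested), 9 rising (0.13%) and 6 falling (0.0864%). In Takanari 8 loci changed (0.115%), 7 rising (0.101%) and 1 falling (0.0144%), at an adjusted p under 0.05 in edgeR. The libraries of the other cultivar had no part in these contrasts. They did enter the filter, the scaling and the estimates of spread, so the readings in the other cultivar are not fully independent. Of the 9 loci that rose in NIL-MP3, 8 had a positive log2 change in Takanari, as had 50.4% of all tested loci. The median of the 9 there was 0.863. An unadjusted p under 0.05 in that direction was found at 6 of them, and at 4.25% of all tested loci. Of the 6 that fell in NIL-MP3, 6 were lower in Takanari AM5 (49.6% of all tested loci), with a median of -0.62. Of these, 4 had an unadjusted p under 0.05 in that direction (3.4% of all tested loci). The 7 loci that rose in Takanari were all higher in NIL-MP3 AM5 (50.4% of all tested loci), with a median of 0.954. Of these, 5 had an unadjusted p under 0.05 (4.23% of all tested loci). LOC_Os03g45280 was the 1 locus called as rising in both cultivars. Without the block no locus passed in either cultivar (0 and 0), and with 1 library left out the counts ran from 1 to 32 in NIL-MP3 and from 3 to 12 in Takanari.

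No locus passed the threshold for a difference in the step between the cultivars (0%, 0 loci with edgeR, DESeq2 and limma voom), and 285 of 6943 loci had an unadjusted p under 0.05. All 73 rising and 29 falling loci had the same sign of change in both cultivars, as had 3989 of the 6943 tested loci. The shared sign of the called loci follows in part from their choice on the mean of both cultivars. The median log2 change of the rising loci was 1.18 in NIL-MP3 and 1.13 in Takanari, and that of the falling loci -0.876 and -0.767. A p that misses the threshold does not show that the cultivars made the same step.

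The neighbouring step, from AM3 to AM4, shares the AM4 libraries with the step to AM5. It changed 40 loci (0.576% of those tested), 19 rising (0.274%) and 21 falling (0.302%), and this count moved by over 1.5 times when any one of 11 of the 12 AM3 and AM4 libraries was left out (3 to 64 loci). The called loci changed by a median of 0.793 in log2 size from AM3 to AM4 and of 1.11 from AM4 to AM5. At the 73 loci rising to AM5 the median log2 change was 1.25 from AM4 to AM5 and 0.221 from AM3 to AM4. At the 29 falling loci the medians were -0.88 and -0.272. Both lists were chosen for their change from AM4 to AM5, so larger medians in that step follow from the choice. They do not compare the 2 steps. LOC_Os03g45280 was called in both steps, with 1.23 ± 0.27 from AM3 to AM4 (SE, adjusted p = 0.0271). No locus passed in the test of the difference between the steps (0%, 0 loci with edgeR, DESeq2 and limma voom), with 373 loci at an unadjusted p under 0.05. Among the 4 named loci the difference between the steps was largest at LOC_Os02g47150, a log2 value of -1.06 ± 0.36 (SE, adjusted p = 0.684).

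Levels in AM1, AM2, AM3 and SAM were fitted without any AM4 or AM5 library, which gives the levels of the called loci at the lower AM numbers. The labels do not say whether these numbers follow time. Of the 73 loci that rose to AM5, 12 were lower and 5 higher in AM3 than in AM1 (edgeR, adjusted p under 0.05). Of the 29 loci that fell to AM5, 8 were lower and 5 higher in AM3 than in AM1. Of all tested loci, 5.8% were lower and 3.95% higher, and both lists of called loci lay above these shares in both directions. The called loci were also more abundant. Their median level in AM4 was 109 CPM at rising and 308 CPM at falling loci, against 74.8 CPM over all tested loci. The shares were not adjusted for level, and what level adds to them was not tested. LOC_Os02g43700 was one of the 12 rising loci that were lower in AM3 than in AM1. The median log2 difference AM3 minus AM1 was -0.149 at rising loci, -0.221 at falling loci and -0.0054 over all tested loci. Against SAM, 0 rising loci were higher and 2 lower in AM1 to AM3, and 0 falling loci in either direction, where 0.331% of all tested loci were higher and 1.11% lower. No test asked whether these shares differ from the background.

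**Figure D5:**
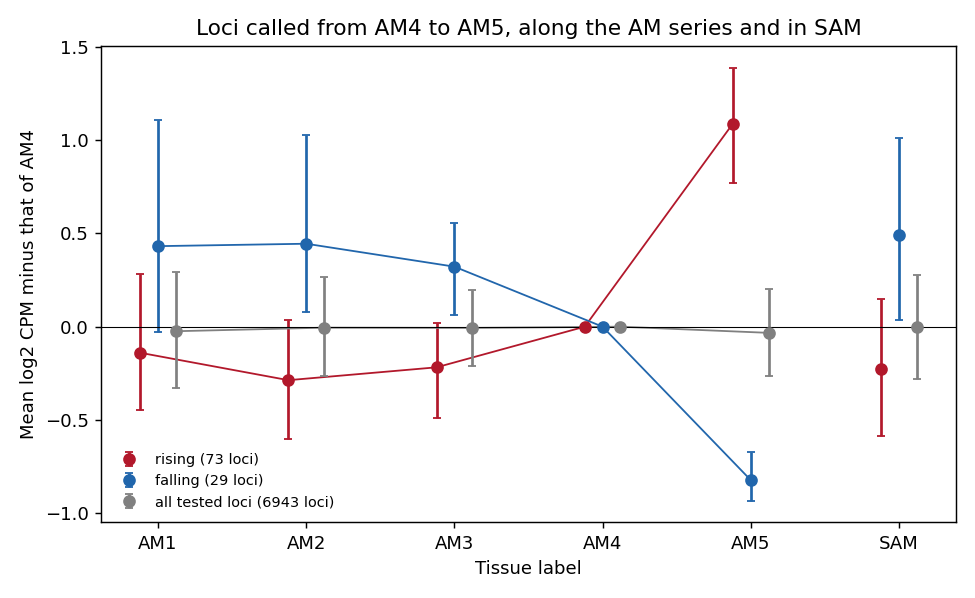
Median over loci (points) of the mean log2 CPM of each tissue label minus that of AM4 (vertical axis), with the range from the 25th to the 75th percentile of loci as bars, for the 73 rising, 29 falling and all 6943 tested loci. AM4 is 0 by construction, and the loci were chosen on AM5 minus AM4, with medians of 1.09 and -0.823 in AM5. Values of the other tissue labels subtract the same AM4 libraries, so they are not free of that choice. In AM3 the medians were -0.218 for rising and 0.322 for falling loci.

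The called loci lay on all 12 chromosomes, read from the identifiers. The share of tested loci called ran from 0.575% on chromosome 7 (3 of 522) to 2.2% on chromosome 12 (8 of 363). Chromosome 1 held 19 called loci of 980 tested, and chromosome 3 held 14 of 1045. Chromosomes 9 and 11 each held 4 rising and 0 falling loci, and chromosome 4 held 3 rising and 5 falling. Neighbours in the order of tested identifiers were both called in 4 cases, and each such pair moved in the same direction (4 of 4). The sources used here do not state how the counting split reads between loci that overlap or are near copies, so such pairs are uncertain. Among all 21437 loci with a count in AM4 or AM5, 8 had 0 counts in all 6 AM4 libraries and a count in at least 5 AM5 libraries. The opposite pattern was seen at 16. These numbers were not adjusted for the lower mean total of the AM5 libraries. Any locus at 0 in all 6 AM4 libraries had at most 22 counts over the 6 AM5 libraries, and at most 14 in the opposite case. At this depth no locus with a high count was thus seen in only 1 of the 2 tissues.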

How the data were processed

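The deposited values were whole-number counts of molecular identifiers per locus, 55801 loci by 35 libraries, not normalized. Per the submitters' processing notes the tools included Bowtie2 and Subread 2.1, without a stated role, and neither genome build nor annotation is given in the sources used here. Of 36 libraries in the labels, the submitters dropped 1 of Takanari SAM because its reads did not align.

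The 6943 loci that passed filterByExpr (minimum count 10, 12 groups) were tested with edgeR 4.0.16 in R 4.3.3 (TMM, quasi-likelihood F test, robust). They held 84.5% to 86% of the counts of the 12 libraries, with TMM factors of 0.891 to 1.05. All 35 libraries entered, with 1 mean per group of cultivar and tissue plus the set of library numbers within each cultivar as block, 19 residual degrees of freedom. The step is the mean of the differences of the 2 cultivars. SE is the log2 change divided by the square root of F. CPM used the tested loci and TMM factors, and log2 CPM per library a prior count of 2. DESeq2 1.42.0 and limma 3.58.1 were alternatives.

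The block came from library numbers. Deviations of the AM5 and AM4 library of a set correlated at 0.0732 to 0.22 across loci, and those of different sets of a cultivar at -0.151 to 0.0306. Deviations were taken from the mean of each group and sum to 0 within it. The lower values between sets thus follow largely from those within sets and are no separate evidence of pairing. Not every set exceeded 0.1, so pairing is a hint from the data and not given by the labels. No replicate pair agreed within sampling noise (chi-square per degree of freedom of at least 1.66 in 34 pairs).

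In simulated data for AM5 against AM4 over 6943 loci, 30.6% of changes of 1 on the log2 scale were called. Of changes of 2, 79.4% were called, and there were 2 false calls. Whether these rates hold for the real libraries, where the number of called loci moved with the block and library numbers 1 to 6, was not tested. The libraries, comparisons and lists were chosen with earlier results of these data known. The rule for named loci took the 12 of lowest p in each direction among called loci with the same sign in at least 5 of 6 sets, of which the first 2 are printed, since no identifier matched a name. For the same reason gene lists and cell type markers were not used. The fits without AM4 and AM5 and the readings in left-out sets were added after the data were seen.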

Additional observations from a re-analysis of the deposited data

How the results depend on the processing

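The 4 named loci kept their direction in 112 values under other settings, and 108 stayed past the threshold. These loci were chosen for low p-values in the same libraries, which the settings reuse. The 112 values are thus not independent of the choice or of each other. The count of 102 loci between AM4 and AM5 was 25 with no replicate block, 35 with a replicate block of 3 levels shared by the cultivars, 60 in a fit of the 12 libraries alone, 34 and 26 in 2 draws of thinned counts, 45 without both AM5 libraries numbered 1, and 17 and 62 without library numbers 1 to 6 and 13 to 18. It ran from 41 to 142 when 1 library was left out. In NIL-MP3 (15 loci) the count was 28 with no filter, 0 with no replicate block or one of 3 levels, 6 and 25 without numbers 1 to 6 and 7 to 12, and 1 to 32 with 1 library left out. It was 1 and 2 without NIL-MP3 AM4 replicates 2 and 8, and 32 without NIL-MP3 AM5 replicate 7. In Takanari (8 loci) it was 31 with no filter, 18 with limma voom and in a fit of the compared groups alone, 3 in thinned counts, 0 with no replicate block or one of 3 levels, 5 without both AM5 libraries numbered 1, 2 without numbers 1 to 6, and 3 to 12 with 1 library left out. It was 3, 5 and 5 without Takanari AM5 replicate 1 and AM4 replicates 2 and 8. From AM3 to AM4 (40 loci) it was 0 with no replicate block, 1 with 3 levels, 64 with the compared groups alone, 2 in thinned counts, 12, 20 and 1 without numbers 1 to 6, 7 to 12 and 13 to 18, and 3 to 64 with 1 library left out, where only leaving out NIL-MP3 AM4 replicate 2 moved it by less than 1.5 times. The interaction of cultivar with the step had 1 locus with no filter and 1 without numbers 13 to 18, and the difference of steps 3 and 2, with 0 in each when 1 library was left out. AM3 against AM1 gave 677 loci, and 236 with no replicate block, and AM1 to AM3 against SAM gave 100 and 12. The cause of these moves was not tested, except that fewer libraries or counts enter some fits. The difference in total ran from -57700 to -36600 with 1 pair left out, that in loci detected from 81.2 to 152, and that in the share of the 100 top loci from 1.99 to 3.24 percentage points. With 500 top loci the share was 2.37 points higher in AM5 (exact paired permutation test, p = 0.0312). Low counts also limit the reading: at the lowest total a count of 0 allows up to 3 counts. This limit covers counting error only.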
